A study of Mus musculus with 10 samples.

Results

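The pyruvate dehydrogenase kinases and phosphatases of GMPs were examined as 7 genes taken by name, namely *Pdk1*, *Pdk2*, *Pdk3*, *Pdk4*, *Pdp1*, *Pdp2*, and *Pdpr*. All 7 were found among the 51717 genes to which annotated transcripts could be assigned, and 6 of them had enough reads to be tested. RNA-seq had been done on CD45.2+ GMPs, the donor-derived granulocyte-macrophage progenitors, sorted from the bone marrow of mixed chimeras in which marked competitor marrow shared the irradiated host. WT donors carried ROSA26 CreER+/-, a tamoxifen-activated Cre expressed from a ubiquitous promoter, and recent *Mpc2* KO donors carried Mpc2 fl/fl with the same ROSA26 CreER+/-, so that tamoxifen deleted exon 3 of *Mpc2*, a subunit of the mitochondrial pyruvate carrier. Both groups were male and of the C57Bl6/N strain, both received tamoxifen in the diet for 2 wk directly before sorting, and donor age is not given in the sources used here. There were 5 samples per group. Each WT library was made from the cells of 1 mouse, while cells of 2 mice were pooled for each KO library (10 mice in all), so that only the WT group showed the spread between single animals.

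The pyruvate dehydrogenase complex turns pyruvate that has entered mitochondria into acetyl-CoA for the TCA cycle. Its kinases (PDK proteins) bind the lipoyl domains of the DLAT core and phosphorylate the PDHA1 subunit, which switches the complex off. The phosphatases PDP1 and PDP2 remove the phosphate and switch it on again, and PDPR is a regulatory partner of PDP1. Cells differ in which kinase isoforms they use: PDK1 is a classic target of hypoxia-inducible factor, PDK4 is induced in fasted muscle, heart, and liver through PPAR and FOXO factors, and PDK2 is widely expressed. Pyruvate itself restrains the kinases. The design allows both a description of which isoforms GMPs transcribe and a comparison of their RNA shortly after deletion of *Mpc2*.

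The files hold estimated reads per transcript, which were summed per gene and compared as normalized CPM (counts scaled to library size after correction for composition), and TPM (a level per transcript length, with libraries brought to a common total), which was used wherever one gene was set against another. Samples totaled 14033776 to 19745405 estimated reads. *Mpc2* itself was measured at 61.0, 111, 95.2, 117, and 60.9 CPM in WT samples and at 27.7, 17.1, 43.9, 37.0, and 35.0 CPM in recent *Mpc2* KO samples. No KO sample reached the lowest WT sample, and the log2 fold change was -1.46 ± 0.24 (SE, Benjamini-Hochberg adjusted p = 0.0156 in the quasi-likelihood test of edgeR). The call for *Mpc2* held in 17 of 23 other settings, and its adjusted p over the settings outside the leave-one-out fits reached at most 0.138. Among the 10 markers fixed for GMPs, the granule gene *Mpo* was at 22299 TPM in WT and 16366 TPM in KO samples (log2 fold change -0.52 ± 0.17, SE, adjusted p = 0.272 by edgeR), while *Cebpa*, *Kit*, and *Csf1r* were detected at 3.44 to 7.80 TPM.

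Libraries differed in the length of their fragments, measured as the bases by which the files shorten long transcripts to an effective length. WT replicate 1 stood at 344 bases against 302 to 304 in the other WT libraries, and KO replicate 2 stood at 327 bases against 281 to 288 in the other KO libraries. These 2 libraries are named wherever a result rests on them. Apart from them, every KO library had shorter fragments than every WT library, so fragment length and genotype cannot be told apart in the remaining libraries.

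*Pdk3* was the most abundant of the 7 genes in WT GMPs. It was measured at 34.0, 24.1, 26.2, 25.1, and 30.4 TPM in the 5 WT samples, a mean of 27.96 ± 4.17 TPM (SD, n = 5). Its level exceeded that of 89.0% of the 25246 genes with any signal in WT samples. *Pdk1* followed at 17.9, 16.8, 13.2, 16.7, and 18.3 TPM, with a mean of 16.6 ± 2.00 TPM (SD, n = 5). The lowest *Pdk3* sample lay above the highest *Pdk1* sample, and *Pdk3* was the higher gene in 5 of 5 WT samples, by 1.68-fold on average. The log2 ratio of *Pdk3* to *Pdk1* was 0.75 ± 0.21 (SD, n = 5). An exact two-sided sign-flip test of this ratio gave p = 0.0625, which is the smallest that 5 samples allow.

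*Pdk2* was a minor kinase transcript. Its WT samples were at 1.49, 0.818, 1.09, 0.848, and 1.27 TPM, a mean of 1.10 ± 0.29 TPM (SD, n = 5). *Pdk4* was at or under the floor of 3 counts in every library. A single read was assigned to it in WT replicate 4, another in KO replicate 3, and none in the other 8 libraries, where 3 counts correspond to 0.152 to 0.214 CPM. No fold change is given for *Pdk4*, and the floor covers counting error only.

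The phosphatase genes lay below the leading kinases in summed TPM. *Pdp1*, the calcium-stimulated catalytic subunit, was at 3.29, 3.03, 2.06, 2.07, and 2.97 TPM in WT samples. *Pdp2*, the catalytic subunit that does not respond to calcium, was at 0.823, 0.893, 0.800, 0.795, and 0.853 TPM, the tightest spread of any tested member with an SD of 0.041 TPM. *Pdpr*, which encodes the regulatory subunit, was at 0.483, 0.343, 0.365, 0.728, and 0.661 TPM.

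In descending order of mean TPM, WT GMPs thus had *Pdk3*, *Pdk1*, *Pdp1*, *Pdk2*, *Pdp2*, *Pdpr*, and *Pdk4*. Of the 5 neighboring pairs among the 6 detected genes, 4 kept their order in 5 of 5 WT samples with ranges that did not overlap. *Pdk1* exceeded *Pdp1* by 6.26-fold, *Pdp1* exceeded *Pdk2* by 2.45-fold, and *Pdp2* exceeded *Pdpr* by 1.69-fold, each with the smallest exact sign-flip p of 0.0625 (two-sided). With protein-coding transcripts only, *Pdk1* exceeded *Pdp1* by 1.58-fold, still in 5 of 5 samples. The exception was *Pdk2* against *Pdp2*, whose ranges overlapped. *Pdk2* was the higher of these in 4 of 5 WT samples, with a log2 ratio of 0.37 ± 0.39 (SD, exact sign-flip p = 0.188), so these neighbors did not differ beyond their spread. The same order of means was found for the recent *Mpc2* KO samples, with *Pdk2* above *Pdp2* in 3 of 5 and ranges that also overlapped for *Pdp1* with *Pdk2* and for *Pdp2* with *Pdpr*.

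**Figure D1:**
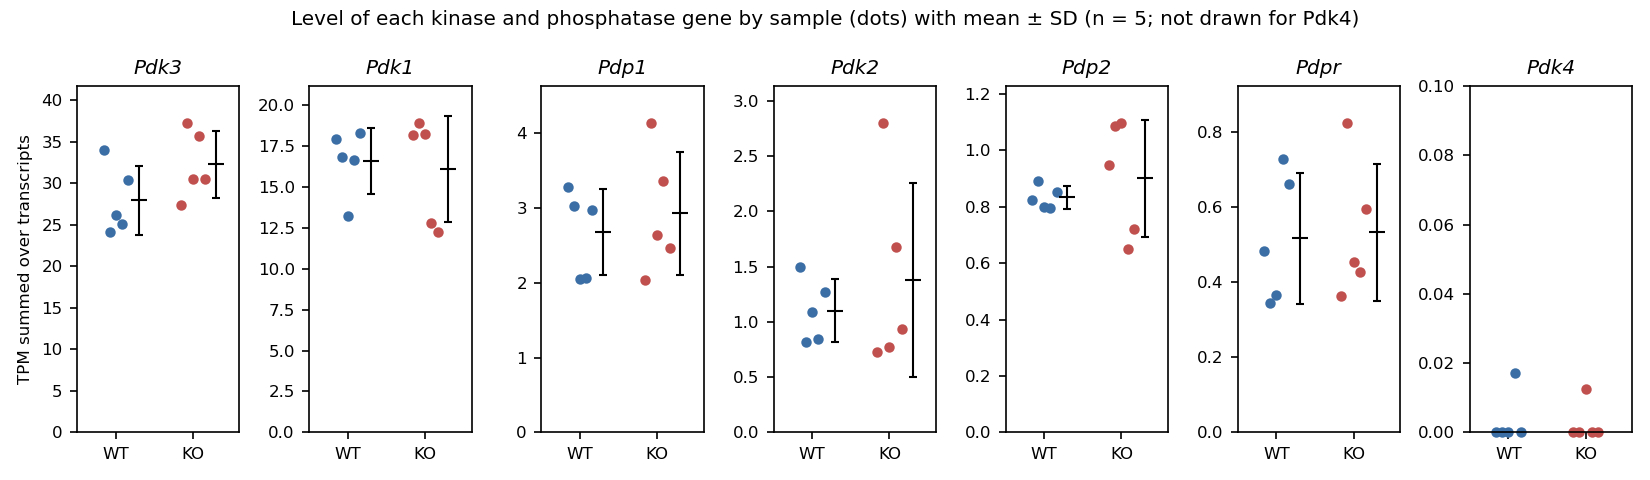
TPM of each gene in each WT (blue, left) and recent *Mpc2* KO (red, right) sample, with the mean ± SD of 5 samples as a black bar. Each panel has its own axis from 0: *Pdk3* lies between 24.1 and 37.2 TPM and *Pdk4* at or near 0.

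As shares of the summed kinase TPM, *Pdk3* made up 61.2% ± 3.01, *Pdk1* 36.4% ± 3.37, and *Pdk2* 2.39% ± 0.39 in WT samples (SD, n = 5). In recent *Mpc2* KO samples the shares were 65.0% ± 5.25 for *Pdk3*, 32.3% ± 5.78 for *Pdk1*, and 2.68% ± 1.37 for *Pdk2*. In KO replicate 2 the *Pdk2* share was 4.75%, with 3 reads on the short transcript Pdk2-202 (467 bases). With protein-coding transcripts only, the *Pdk2* share was instead lower in KO samples, at 2.71% against 3.29% in WT samples. In estimated reads it was 2.08% against 2.41%. The ranges of the *Pdk3* share, 57.7% to 64.7% in WT and 59.15% to 71.15% in KO samples, overlapped. Within the phosphatase genes *Pdp1* held 66.1% ± 5.74 in WT and 66.7% ± 5.79 in KO samples. Summed kinase TPM exceeded summed phosphatase TPM 11.4 ± 1.04 times in WT and 11.6 ± 1.45 times in KO samples (SD, n = 5). With protein-coding transcripts only, the ratio was smaller, at 8.29 ± 1.05 in WT and 8.90 ± 0.84 in KO samples (SD, n = 5).

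The RefSeq sequence upstream of the start was compared for the leading kinase, the hypoxia-linked kinase, and the kinase at the floor, because their levels span the whole range. RefSeq (GRCm38.p6) gave a promoter for 6 of the 7 genes. Only bases upstream of the first annotated start are shown, on the strand of the gene. Capitals mark the core ACGTG or GCGTG, letters found in hypoxia response elements, read on both strands, so that the reverse complements CACGT and CACGC are marked too and may overlap.

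Pdk3, chrX:93832202-93832400, minus strand: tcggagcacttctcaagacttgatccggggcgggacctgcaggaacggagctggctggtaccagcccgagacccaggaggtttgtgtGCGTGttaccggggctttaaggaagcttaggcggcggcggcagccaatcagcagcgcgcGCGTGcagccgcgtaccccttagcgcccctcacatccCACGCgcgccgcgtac

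Pdk1, chr2:71872974-71873223, plus strand: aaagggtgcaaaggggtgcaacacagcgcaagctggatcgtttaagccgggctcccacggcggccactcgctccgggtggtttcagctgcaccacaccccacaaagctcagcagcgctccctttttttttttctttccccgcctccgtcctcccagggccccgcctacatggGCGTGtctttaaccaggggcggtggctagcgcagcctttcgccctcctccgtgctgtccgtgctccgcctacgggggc

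Pdk4, chr6:5496310-5496528, minus strand: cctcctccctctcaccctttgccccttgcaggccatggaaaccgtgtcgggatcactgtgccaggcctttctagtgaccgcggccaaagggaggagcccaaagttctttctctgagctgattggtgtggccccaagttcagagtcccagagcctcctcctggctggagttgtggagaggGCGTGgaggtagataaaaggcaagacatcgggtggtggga

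Within the 250 bases before the RefSeq starts of the promoters shown, *Pdk3* had 29 CpG dinucleotides, a number that 6.78% of 32851 RefSeq mouse promoters reached. *Pdk1* had 19, a number reached by 19.7% of promoters, and *Pdk4* had 6, which is also the median of all promoters. CpG number did not follow level over the members, as *Pdpr*, the lowest of the detected genes, had 43 and *Pdk2* had 19. A further RefSeq start of *Pdk1* (position 71874904) had 2 CpG dinucleotides and no core. The core occurred 4 times in *Pdk3*, of which 3 lie in the bases shown, and 1 time each in *Pdk1* and *Pdk4*. *Pdk2*, *Pdp2*, and *Pdpr* had it 2 times each, with overlapping matches counted, and a further RefSeq start of *Pdk2* had 0. Of all promoters, 38.6% hold it at least once. Its presence thus does not set *Pdk3*, *Pdk1*, and *Pdk4* apart from the other members with a promoter. The match is one of letters and no binding was measured.

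By TPM, *Pdk1* RNA was not mainly the protein-coding transcript, although by reads it was. *Pdk1* lies on chromosome 2 (chr2:71873224-71903858, GRCm38, plus strand) with 8 annotated transcripts, and only Pdk1-201, with 11 exons, is annotated as protein coding. Pdk1-201 was at 4.65, 3.69, 3.89, 4.51, and 4.10 TPM in WT samples, which was 25.4% ± 3.18 (SD, n = 5) of the TPM of the gene. Because it is the longest of the 8 at 5185 bases, it nonetheless took 58.1% of the reads of the gene. *Pdk3* differed, with 99.6% of its TPM in WT samples from its protein-coding transcript Pdk3-201 (2115 bases, 12 exons).

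The other abundant *Pdk1* transcripts were Pdk1-206 and Pdk1-208, both annotated as processed transcripts. Pdk1-206 (777 bases) was at 6.13, 5.45, 3.36, 5.81, and 5.44 TPM in WT samples, or 31.3% ± 3.87 of the TPM of the gene. By reads its share was 6.98%, a mean of 54.6 reads per WT library. Pdk1-208 (2972 bases) was at 4.29, 3.63, 4.02, 2.07, and 4.35 TPM, or 22.4% ± 6.49, and held 27.8% of the reads. The short Pdk1-202 (327 bases) had 7.42% of the TPM in WT and 13.7% in KO samples. These shares came from means of 2.00 and 3.85 reads per library. Pdk1-208 lacks exon 2 (chr2:71875406-71875547) and exon 7 (chr2:71887382-71887458) of Pdk1-201. Pdk1-206 begins with an exon of its own (chr2:71873743-71873818) inside the first intron of Pdk1-201 and ends within exon 8. The transcripts also differ at their ends: exon 11 is 3875 bases in Pdk1-201, the last exon of Pdk1-208 is 2003 bases of it, and Pdk1-206 lacks exons 9 to 11. The sequences across the differing junctions are shown because they are where exons are skipped or exchanged. Each line gives the last 15 bases of the left exon in lower case and the first 15 of the right exon in capitals, from the GENCODE M21 transcripts.

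Pdk1-201, exon 1 to exon 2: agttcctggacttcgGGTCAGTGAATGCTT

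Pdk1-208, exon 1 to exon 3: agttcctggacttcgGTATATCCAAAGCCT

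Pdk1-201, exon 6 to exon 7: ttgaagaactaaatgCGAAATCACCAGGAC

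Pdk1-208, exon 6 to exon 8: ttgaagaactaaatgAATGCCATGAGAGCG

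Pdk1-206, own first exon to exon 2: cgcgcacgtgcgtagGGTCAGTGAATGCTT

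**Figure D2:**
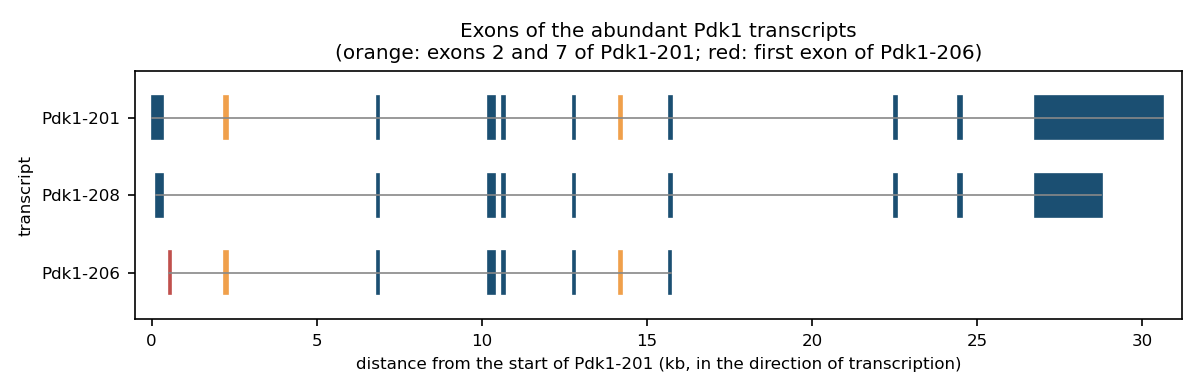
Exons of Pdk1-201, Pdk1-208, and Pdk1-206 as boxes, to scale, by distance from the start of Pdk1-201 in kb. Orange boxes are exons 2 and 7, which are absent from Pdk1-208, and the red box is the first exon found only in Pdk1-206 of these 3.

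Salmon estimates how reads that match several transcripts are to be divided, and these transcripts share many of their bases, so the split is less certain than the total of the gene. Reads across single junctions were not counted in the files. With protein-coding transcripts only, the preference for *Pdk3* widened from 1.70 ± 0.24 to 6.69 ± 0.74 times the level of *Pdk1* in WT samples (mean of the sample ratios, SD, n = 5). The *Pdk3* share of kinase TPM was then 84.0% in WT and 84.1% in KO samples, with *Pdk1* at 12.7% and 13.2%. In estimated reads, without scaling to length, *Pdk3* had 1.43 ± 0.10 times the reads of *Pdk1*. *Pdk3* was thus the leading kinase on each of these scales, while the size of its lead was not fixed by them.

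*Pdp1* (chr4:11958184-11966452, minus strand) had 6 annotated transcripts, all protein coding, and its reads moved between them from library to library. Pdp1-201 made up 26.6% to 62.1% of the TPM of the gene in WT samples. Pdp1-202 ranged from 0% to 62.0% in WT and from 0% to 86.1% in KO samples, being listed at 0 in 2 of 5 WT and 1 of 5 KO libraries. The other genes were simpler. *Pdp2* (chr8:104591451-104599026, plus strand) has 1 annotated transcript. *Pdk2* (chr11:95026258-95041354, minus strand) came wholly from Pdk2-201 in WT samples, and at 85.5% of TPM and 98.0% of reads in KO samples. *Pdpr* (chr8:111094630-111137074, plus strand) came at 89.0% of TPM and 98.9% of reads from Pdpr-201 in WT samples. The short Pdpr-202 (639 bases) had 1.54 reads in WT replicate 4 and 1 read in WT replicate 5. There Pdpr-201 alone was at 0.480 and 0.522 TPM. *Pdk3* lies at chrX:93764607-93832201 and *Pdk4* at chr6:5483351-5496309, both on the minus strand. A gene on the other strand lies over part of *Pdk2*, with 0 shared exon bases, and another over part of *Pdpr*, with 169 of its 5028 exon bases shared. The strand setting of the counting is not given in the sources used here. No transcript of the 7 genes matched a transcript of another gene at 90% identity or more over 150 bases.

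No kinase or phosphatase gene passed the threshold between recent *Mpc2* KO and WT GMPs. Of 12381 genes tested, 41 (0.331%) were called at an adjusted p under 0.05, of which 15 (0.121%) were higher and 26 (0.21%) lower in KO samples. Among the 6 tested members the count was 0, both by edgeR and by DESeq2, which called 156 of 14360 genes (1.09%), and at an unadjusted p under 0.05 it was also 0, against 1268 of all genes (10.2%). Adjusted p-values of the members ran from 0.616 to 0.963. The median log2 fold change was 0.10 over the 6 members and -0.0018 over all genes tested, with 5 members above 0 and 1 below. No member had groups without overlap, which 301 genes (2.43%) had.

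*Pdk3* was at 75.8, 57.8, 65.5, 64.3, and 69.6 CPM in WT samples and at 68.7, 82.2, 68.5, 77.9, and 68.9 CPM in recent *Mpc2* KO samples. All 5 KO samples lay above the WT median, but the highest WT sample, replicate 1, lay above 3 of them. The log2 fold change was 0.14 ± 0.08 (SE, adjusted p = 0.616 by edgeR, exact permutation p = 0.143, two-sided), that is 1.10-fold with a 95% interval of 0.973 to 1.24. Its highest values in each group were those of the 2 libraries with the longest fragments. Without both of them the log2 fold change was 0.15 ± 0.08 (adjusted p = 0.442 by edgeR). Without WT replicate 1 alone it was 0.19 ± 0.08 (adjusted p = 0.458, unadjusted p = 0.0382), with a 95% interval of 1.01- to 1.29-fold that does not include 1. Without KO replicate 2 alone it was 0.09 ± 0.08 (adjusted p = 0.702, unadjusted p = 0.276, by edgeR), with a 95% interval of 0.945- to 1.20-fold.

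*Pdk1* gave 48.9, 43.9, 47.5, 46.6, and 45.7 CPM in WT samples and 45.8, 60.4, 48.0, 43.0, and 47.5 CPM in KO samples. KO replicate 2 stood above all others and the remaining 9 samples lay between 43.0 and 48.9 CPM. The log2 fold change was 0.07 ± 0.09 (SE, adjusted p = 0.845 by edgeR, exact permutation p = 0.611), with a 95% interval of 0.926- to 1.20-fold. Without KO replicate 2 it was -0.01 ± 0.06 (adjusted p = 0.959). On the TPM scale, where the split between transcripts enters, the means were 16.6 ± 2.00 in WT and 16.1 ± 3.25 in KO samples (SD, n = 5), and the sign of the fold change turned, to -0.06 (limma, adjusted p = 0.931). With reads of protein-coding transcripts only it was 0.20 ± 0.13 (SE, adjusted p = 0.651 by edgeR), with a 95% interval of 0.942- to 1.39-fold.

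*Pdk2* was measured with 28 to 73 reads per library, and its interval was wide. Its WT samples were at 3.57, 2.11, 2.97, 2.33, and 3.11 CPM and its KO samples at 1.97, 4.41, 1.86, 2.74, and 2.27 CPM. KO replicate 2 was again the highest sample and 1 of 5 KO samples exceeded the WT median. The log2 fold change was -0.11 ± 0.26 (SE, adjusted p = 0.932 by edgeR), with a 95% interval of 0.633- to 1.37-fold. Without KO replicate 2 it was -0.36 ± 0.23 (adjusted p = 0.550).

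For *Pdp1*, WT samples were at 8.86, 8.65, 5.64, 5.91, and 7.60 CPM and KO samples at 6.33, 10.4, 7.62, 9.13, and 7.47 CPM. The groups overlapped, and KO replicate 2 was the highest sample. Its log2 fold change was 0.15 ± 0.17 (SE, adjusted p = 0.833 by edgeR), with a 95% interval of 0.866- to 1.42-fold. Without KO replicate 2 it was 0.05 ± 0.17 (adjusted p = 0.934).

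*Pdp2* was at 5.53, 6.38, 6.06, 6.06, and 5.81 CPM in WT samples and at 7.03, 7.20, 7.28, 4.32, and 4.79 CPM in KO samples. None of the KO samples fell inside the WT range, as 3 lay above and 2 below it, and the means were 5.97 ± 0.32 in WT and 6.13 ± 1.44 in KO samples (SD, n = 5). The log2 fold change was 0.04 ± 0.16 (SE, adjusted p = 0.963 by edgeR), with a 95% interval of 0.806- to 1.31-fold. *Pdpr* had few reads, 33 to 67 per library. It was at 2.79, 2.11, 2.37, 3.26, and 3.11 CPM in WT samples and at 2.32, 4.69, 2.59, 2.44, and 3.40 CPM in KO samples. Its log2 fold change of 0.18 ± 0.23 (SE, adjusted p = 0.855 by edgeR) had a 95% interval of 0.804- to 1.59-fold, and fell to -0.01 ± 0.21 (adjusted p = 0.988) without KO replicate 2.

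**Figure D3:**
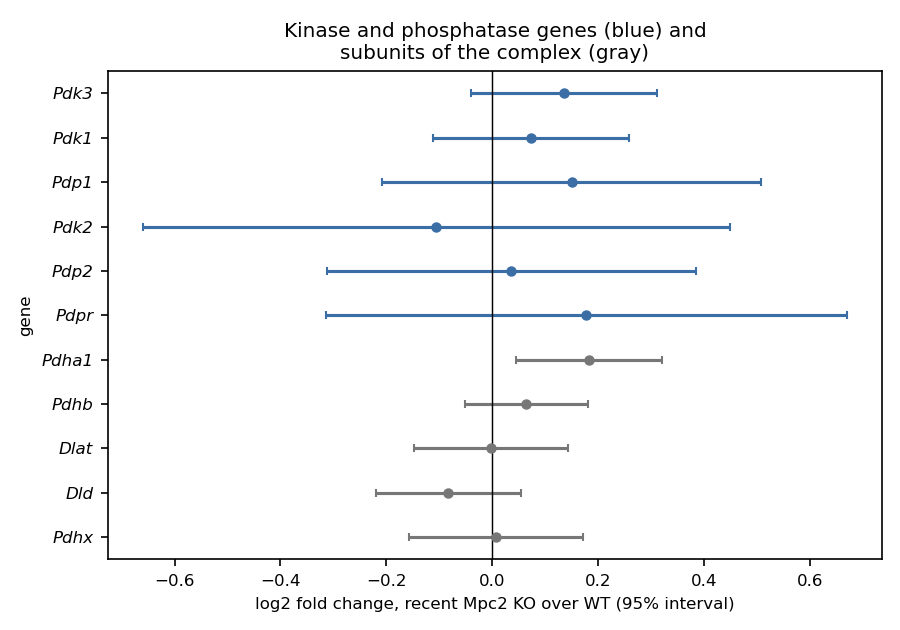
Log2 fold change of recent *Mpc2* KO over WT with its 95% interval for the 6 tested kinase and phosphatase genes (blue) and 5 subunits of the complex (gray). The intervals of all 6 blue genes include 0, and the widest belong to *Pdk2* and *Pdpr*.

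The 2 libraries with the longest fragments gave the highest CPM of their group for several members. WT replicate 1 gave the highest CPM of its group for 4 of the 6 tested members, and KO replicate 2 for 5 of 6. Over all tested genes these libraries were the highest of their group for 22.0% and 26.7%. The part of fragment length in the members' values was not tested beyond leaving these libraries out. It cannot be told apart from other traits of these 2 libraries. After both were left out, log2 fold changes of the members ran from -0.25 to 0.15 and none passed the threshold.

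**Figure D4:**
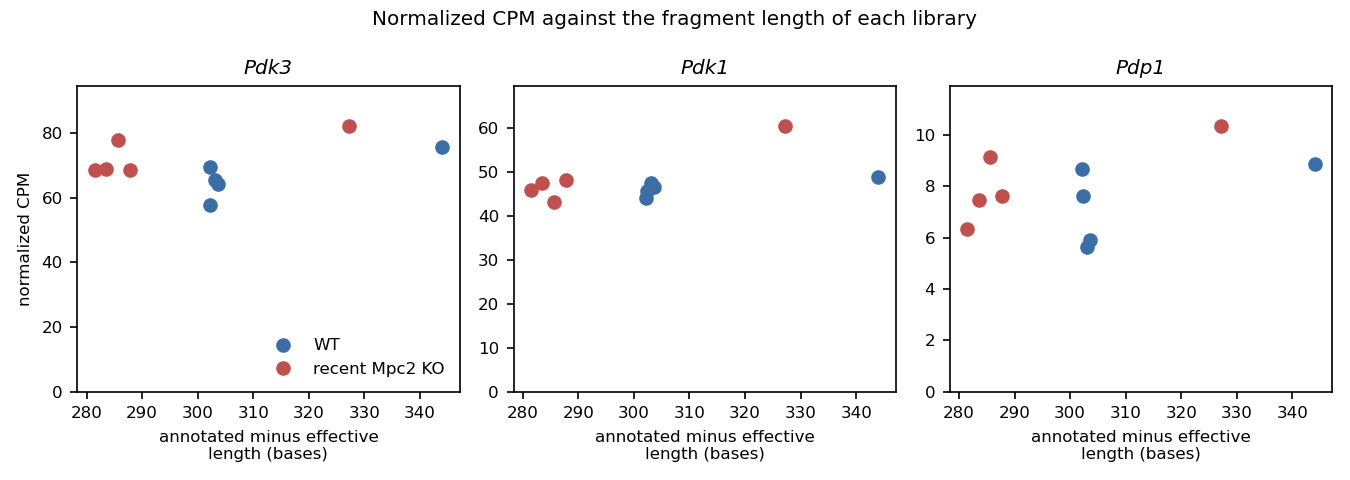
Normalized CPM of *Pdk3*, *Pdk1*, and *Pdp1* against the fragment length measure of each library in bases, for WT (blue) and recent *Mpc2* KO (red) samples. The 2 libraries to the right, at 327 and 344 bases, hold the highest value of their group in each panel.

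Transcript usage of *Pdk1* also stayed short of the threshold. Pdk1-206 was at 3.04, 4.54, 5.77, 1.56, and 2.40 TPM in KO samples, against 3.36 to 6.13 TPM in WT samples. Its share of the TPM of the gene was 20.8% ± 7.40 in KO and 31.3% ± 3.87 in WT samples (SD, n = 5), with ranges that overlapped. By reads its share was 4.24% in KO and 6.98% in WT samples. The protein-coding Pdk1-201 was at 3.24, 6.78, 5.01, 4.88, and 5.47 TPM in KO samples, a share of 32.8% ± 10.4 against 25.4% ± 3.18. A gene-level test of usage over the 5 *Pdk1* transcripts with enough reads gave an adjusted p of 0.909 (edgeR, unadjusted p = 0.0888), and limma's counterpart gave 0.548 (unadjusted p = 0.0449). Of 6637 genes tested for usage, edgeR called 4 (0.0603%) and limma 7 (0.105%), while 386 (5.82%) had an unadjusted p under 0.05 in edgeR and 587 (8.84%) in limma. *Pdp1*, the only other member with several tested transcripts, had an adjusted p of 1.00 by edgeR (unadjusted p = 0.727). By limma it was 0.794 (unadjusted p = 0.240).

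**Figure D5:**
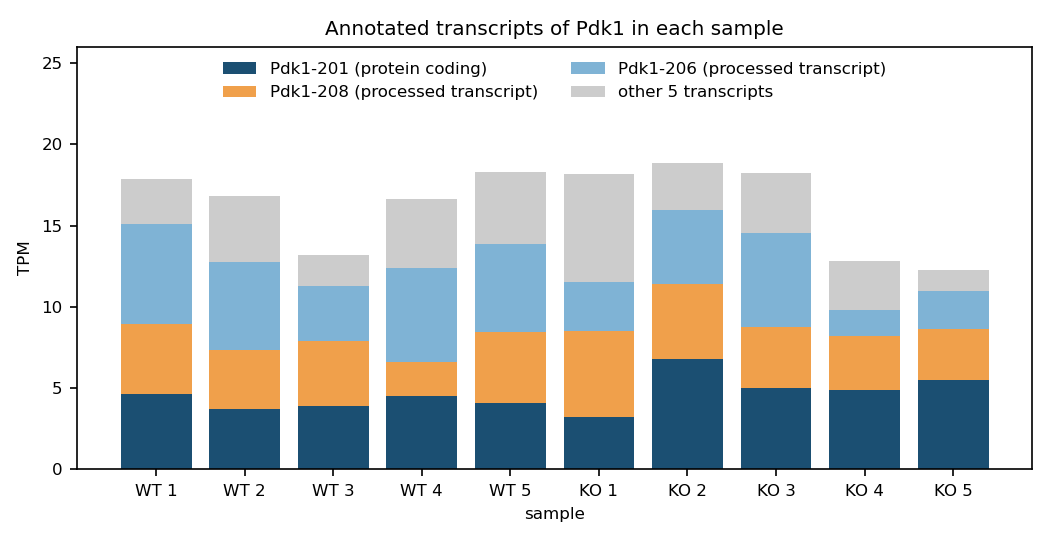
TPM of the annotated *Pdk1* transcripts in each sample, stacked. The protein-coding Pdk1-201 (dark blue) lies between 3.24 and 6.78 TPM, and Pdk1-206 (light blue) is lowest in KO replicate 4, at 1.56 TPM.

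The complex that these enzymes control was covered by 6 genes, of which 5 were tested and none passed. *Pdha1*, the subunit that carries the phosphorylation sites, had the smallest p of them. It was at 29.7 ± 2.72 TPM in WT and 35.5 ± 3.36 TPM in KO samples (SD, n = 5), with a log2 fold change of 0.18 ± 0.06 (SE, adjusted p = 0.330 by edgeR) and CPM ranges that did not overlap. *Pdhb*, its partner, was the most abundant subunit at 154 ± 10.3 TPM in WT and 168 ± 10.9 TPM in KO samples. *Dld*, the E3 component shared with other complexes, was at 35.1 and 34.9 TPM. *Pdha1* RNA was 0.654 ± 0.044 times the summed kinase TPM in WT and 0.716 ± 0.027 times in KO samples (SD, n = 5). The ranges, 0.614 to 0.727 in WT and 0.684 to 0.753 in KO samples, overlapped. This kinase sum includes the processed transcripts of *Pdk1*. With protein-coding transcripts only, the kinase sum was 33.1 ± 4.76 TPM in WT and 38.2 ± 5.38 TPM in KO samples (SD, n = 5). *Pdha2*, the testis form, was listed at 0 in both groups. The median log2 fold change of the 5 tested subunits was 0.01.

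Among 6 genes for the lipoyl group on DLAT, to which the kinases bind, all were tested, none passed, and the log2 fold changes lay between 0.03 and 0.15. *Nfu1* and *Bola3*, iron-sulfur carriers of lipoate synthesis, were at 176 ± 19.3 and 157 ± 11.3 TPM in WT samples and at 188 ± 5.33 and 190 ± 21.1 TPM in KO samples (SD, n = 5). *Glrx5*, another iron-sulfur carrier, was at 161 ± 6.14 and 183 ± 12.01 TPM, with a log2 fold change of 0.08 ± 0.05 (SE, adjusted p = 0.671 by edgeR).

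Of 13 genes for other fates and the entry of pyruvate, 11 were tested and only *Mpc2* passed, which was lower. *Ldha*, which reduces pyruvate to lactate, was at 1584 ± 91.2 TPM in WT and 1916 ± 313 TPM in KO samples (SD, n = 5), with a log2 fold change of 0.21 ± 0.10 (SE, adjusted p = 0.531 by edgeR). *Pkm*, which makes pyruvate, was at 720 ± 28.4 and 734 ± 123 TPM. *Pcx*, which carboxylates pyruvate to oxaloacetate, was scarce at 0.547 ± 0.117 TPM in WT and 0.374 ± 0.058 TPM in KO samples (SD, n = 5), with groups that did not overlap in CPM and a log2 fold change of -0.64 ± 0.20 (SE, adjusted p = 0.269).

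The related kinase and phosphatase of the branched-chain ketoacid dehydrogenase gave the nearest comparison by function. *Bckdk*, the kinase of that complex, was at 49.9 ± 2.82 TPM in WT samples (SD, n = 5), above each of the 4 pyruvate dehydrogenase kinase genes, and its phosphatase gene *Ppm1k* was at 0.650 ± 0.147 TPM (log2 fold change -0.14 ± 0.19, SE). None of the 5 genes of this list passed, and the largest log2 fold change was that of *Bckdhb* at 0.21 ± 0.11 (SE, adjusted p = 0.526 by edgeR). *Bckdha* was at 55.1 and 56.6 TPM.

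Regulators and companion targets of the kinase genes were examined as lists fixed by name. Of 16 transcription factors known to act on kinase genes, 10 were tested and none passed. *Myc* was the most abundant at 108 ± 5.44 TPM in WT and 132 ± 16.9 TPM in KO samples (SD, n = 5, log2 fold change 0.20 ± 0.07, SE, adjusted p = 0.328 by edgeR), and *E2f1* was at 15.8 and 15.99 TPM. *Foxo1* and *Rxra*, with the largest fold changes of the list (log2 0.47 ± 0.27 and 0.45 ± 0.29, SE), were at under 1 TPM in both groups. The PPAR genes *Ppara*, *Ppard*, and *Pparg* and the coactivator *Ppargc1a*, through which *Pdk4* is induced elsewhere, had too few reads to be tested, with group means of 0.00937 to 0.355 TPM.

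All 13 other hypoxia-inducible factor targets were tested and none passed. *Pgk1*, a glycolytic kinase, was at 237 ± 10.6 TPM in WT and 268 ± 26.1 TPM in KO samples (SD, n = 5), and *Vegfa*, the vascular growth factor, had a log2 fold change of -0.45 ± 0.19 (SE, adjusted p = 0.436 by edgeR). *Ankrd37* had 0.30 ± 0.31 (adjusted p = 0.820). The median of this list was 0.02, with 8 genes higher and 5 lower in KO samples. At an unadjusted p under 0.05 (edgeR) were 3 of 13, against 10.2% of all genes tested. These were *Vegfa*, *Ero1a* (-0.22 ± 0.10, SE), and *Car9* (-0.17 ± 0.08, SE), all lower in KO samples.

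For *Pdk4*, 15 other PPAR and FOXO targets were listed, of which 13 were tested and none passed. *Ucp2*, a mitochondrial carrier, and *Plin2*, a lipid droplet protein, were abundant at 296 and 54.2 TPM in WT samples, although *Pdk4* RNA was at the floor. *Klf2*, a FOXO target, had a log2 fold change of -0.69 ± 0.35 (SE, adjusted p = 0.529 by edgeR) and *Acot1*, a thioesterase under PPAR control, 0.45 ± 0.17 (adjusted p = 0.375). *Cpt1a* had the smallest p of the list, with 0.45 ± 0.12 (SE, adjusted p = 0.189, unadjusted p = 0.00228, by edgeR). The median of the list was -0.08, with 5 genes higher and 8 lower in KO samples.

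Markers of other cells were compared beside the members. The complement genes *C1qa*, *C1qb*, and *C1qc* of macrophages were higher in KO samples by 1.25, 1.35, and 1.59 on the log2 scale (3 of 8 macrophage markers passed), and the summed macrophage TPM ran from 9.90 to 20.4 in WT and from 25.1 to 46.6 in KO samples. The median of the 8 macrophage markers was 1.24, with 7 higher and 1 lower. *Adgre1* was the lower one, at -0.39 ± 0.21 (SE), and *Vcam1* was at 0.18 ± 0.23. Of 8 tested erythroid and 8 tested late neutrophil markers none passed, with medians of 1.74 and 1.46 (log2). Summed TPM was 23.5 to 93.3 in WT and 49.9 to 490 in KO samples for the former and 429 to 1424 against 359 to 2369 for the latter. The 10 GMP markers, none of which passed, had a median of -0.39, with summed TPM of 64905 to 84968 in WT and 38399 to 70030 in KO samples. Mast cell and basophil markers (5 tested), stem cell markers (4 tested), and dendritic cell markers (2 tested of 4) had no gene that passed, with medians of 0.31, 0.32, and 1.04. At an unadjusted p under 0.05 (edgeR) were 7 of 10 GMP markers, all lower in KO samples, against 10.2% of all genes tested. For erythroid, late neutrophil, and macrophage markers the count was 5 of 8, 6 of 8, and 5 of 8. For mast cell and basophil, stem cell, and dendritic cell markers it was 3 of 5, 1 of 4, and 2 of 2. *Fcgr3* of the GMP markers (log2 -0.65 ± 0.15, SE) and *Flt3* of the dendritic cell markers (0.98 ± 0.20) had CPM ranges that did not overlap. The same held for *C1qa*, *C1qb*, *C1qc*, and *Cd5l* (1.63 ± 0.32, SE, adjusted p = 0.0544 by edgeR) of the macrophage markers. Of all genes tested, 2.43% had such ranges. None of 7 lymphoid markers had enough reads to be tested. The part of these cells in the members' values was not tested. In bulk RNA, fewer cells of a type and less RNA per cell cannot be told apart.

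Genes whose CPM followed that of the leading kinase and the leading phosphatase most closely over the 10 samples were *Maf1* (Pearson r = 0.93) and *Ntmt1* (r = 0.93) for *Pdk3*, and *Agk* (r = 0.93) and *Nt5m* (r = 0.92) for *Pdp1*. They are the highest of 7145 and 7146 tested genes with a mean of at least 10 CPM. After the group means were taken out, the values were 0.94, 0.94, 0.93, and 0.91. The 10 points share their libraries and depth, and both libraries with the longest fragments are among them, so these values are a description.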

How the data were processed

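RNA-seq of 5 WT and 5 recent *Mpc2* KO samples was used. Per the labels and methods, the authors amplified cDNA (SMARTseq V4), sequenced paired-end reads, and quantified Gencode M27 transcripts with Salmon (1.5.1 in the submitters' processing notes). They deposited estimated counts of reads per transcript, not normalized, and TPM scaled to transcript length. A deposited table of the authors' own DESeq2 comparison (mean counts, fold changes, and p-values per gene) was not used.

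Transcripts were matched to GENCODE M21 (GRCm38) by identifier without version (137161 of 140789, 97.4%) and summed per gene. Reads were rounded and tested with edgeR 4.0.16 (quasi-likelihood, TMM, filterByExpr minimum count 10, genotype as the only term, Benjamini-Hochberg at 0.05). Transcript usage was tested with edgeR's diffSpliceDGE and, added after the data were seen, limma 3.58.1. Single members were also compared by exact permutation tests, for which 5 against 5 samples allow no p below 0.00794. Scripts were tested on simulated data. There diffSpliceDGE made more false calls than its threshold allows, and limma did not. Total reads per sample were 14033776 to 19745405, and without molecular identifiers the floor of 3 counts covers counting error only. Near-identical copies were sought with BLAST 2.17.0, and figures were drawn with matplotlib 3.10.9.

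Members and lists were chosen with earlier results of these data known. The text names the 7 members, *Mpc2*, and from each pathway list the genes that passed, the 2 with the highest TPM and the 2 with the largest fold change. *Pdha2*, *Mpo*, *Cpt1a*, *Ero1a*, *Car9*, the PPAR genes, and markers were named after their values were seen. Alternatives were other normalizations, filters, a length offset, DESeq2 1.42.0, limma on log2(TPM + 1) and log2(TPM + 0.1), a replicate block, protein-coding transcripts only, and leaving out samples.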

Additional observations from a re-analysis of the deposited data

Results flagged for a closer look

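*Pdk1* in KO replicate 2, at 60.4 CPM, lay far from the other KO samples at 43.0 to 48.0 CPM. The fragment length measure of WT replicate 1, at 344 bases, lay far from the other WT libraries at 302 to 304 bases. That of KO replicate 2, at 327 bases, lay far from the other KO libraries at 281 to 288 bases. By Dixon's test at 95%, 3 of 14 groups of values were picked out in this way, and chance picks about 1 in 20. The same library, KO replicate 2, carries the high *Pdk1* value and the long fragments, and whether one bears on the other was not tested.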

How the results depend on the processing

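No member passed the threshold in any of the settings run, and *Pdk3* and *Pdp1* kept their positive sign in all of them. The sign of the others did not hold. With the transcript length offset, log2 fold changes were -0.10 for *Pdk1*, 0.22 for *Pdk2*, and -0.0127 for *Pdpr*. In limma, with a pseudocount of 1 or 0.1 TPM, they were -0.0566 and -0.0606 for *Pdk1*, and 0.12 and 0.16 for *Pdk2*. With both libraries of longest fragments left out, a setting chosen after the data were seen, *Pdp2* was at -0.0491. Leaving out 1 library gave -0.0131 to 0.12 for *Pdk1*, -0.36 to 0.0029 for *Pdk2*, 0.09 to 0.19 for *Pdk3*, 0.05 to 0.23 for *Pdp1*, -0.0375 to 0.14 for *Pdp2*, and -0.0138 to 0.26 for *Pdpr*. Protein-coding transcripts only gave the largest value for *Pdk1*, at 0.20. The cause of these changes of sign was not tested.

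Against 41 called genes, no filter gave 206 of 27909, DESeq2 156 of 14360, limma 25 and 24 of 10333, and protein-coding transcripts only 19 of 10841. Leaving out 1 library gave 25 to 91, with 91 without KO replicate 2, 26 without WT replicate 3, and 25 without KO replicate 3 or 4. Without both libraries of longest fragments 71 were called. Library size normalization alone turned the split of calls to 26 higher and 20 lower, and moved the median of all genes to 0.07. The call for *Mpc2* was lost with robust dispersions (adjusted p = 0.134 by edgeR), the length offset (0.0741), both limma settings (0.130 and 0.138), the replicate block (0.0577), and without KO replicate 1 (0.05002).

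Replicate numbers did not pair the samples: same-numbered deviations from the group means correlated at -0.18 to 0.05 over genes, and none of 5 WT samples correlated best with its own number. With the replicate block 20 genes were called, and *Pdk3* was at 0.14 (adjusted p = 0.736 by edgeR).

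With protein-coding transcripts only, the WT log2 ratio of *Pdk3* to *Pdk1* was 2.73 and that of *Pdk1* to *Pdp1* 0.66. The *Pdk3* share was then 84.0% in WT and 84.1% in KO samples. In estimated reads it was 57.4% and 58.8%, and the *Pdp1* share 45.4% and 47.1%. Reads per kilobase cannot move a ratio within a sample. For transcript usage, a mean count of at least 50 gave 2 called genes, limma 7, leaving out 1 library 10 to 48, with 48 without KO replicate 2, and leaving out both libraries of longest fragments 42. *Pdk2* and *Pdpr* had the fewest reads of the tested members, and *Pdk4* could not be compared.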
